A study of Homo sapiens with 9 samples.

Results

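The Hippo core and YAP/TAZ target genes are 32 genes listed by symbol for their place in the pathway. The list was drawn up with earlier results of these data known, although its rule uses no measured value. Each of the 32 symbols matched a single Ensembl ID in the deposited table of 57905 genes, and all 32 passed the filter on low counts. The data are poly(A) RNA-seq of A549, an established human lung adenocarcinoma line, in 3 groups of 3 libraries. One group, titled plko and labelled as scrambled controls, is the control. The second carries an shRNA (a short hairpin RNA that directs degradation of a matching transcript) against AKR1B1, the aldose reductase that makes sorbitol from glucose. The third carries an shRNA against SORD, the dehydrogenase that turns sorbitol into fructose. Each target has 1 hairpin label and all cells are 1 line, grown with 5% serum, so the effect of a hairpin sequence and that of its target cannot be told apart. The labels do not state whether the 3 libraries of a group came from separate transductions. A p-value therefore reflects library-to-library spread that may be purely technical.

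Total counts per library ranged from 32436524 to 43044456. AKR1B1 was at 145.9 to 167 CPM (counts scaled to a common library size) with shAKR1B1 against 1395 to 1456 in control libraries, and SORD was at 8.18 to 8.997 CPM with shSORD against 41.7 to 44.1, so both targets matched their labels. Each hairpin group was also lower in the other target. AKR1B1 was at 945 to 1135 CPM with shSORD, 75.1% of control (adjusted p = 0.000131), and SORD was at 30.2 to 31.0 CPM with shAKR1B1, 71.2% of control (adjusted p = 6.43e-06). All 8 epithelial and A549 markers passed the filter on low counts, and 8 rose with shAKR1B1 (median log2 fold change 0.88), while 6 rose and 1 fell with shSORD (median 0.73). Of 5 lung lineage markers 1 passed, and no gene of that list exceeded 15 counts in a library, so the labelled lung origin is not seen in these defining genes. The summed level of 8 fibroblast markers was 16.2 to 17.8 CPM in control libraries, 9.23 to 10.7 with shAKR1B1 and 35.4 to 56.9 with shSORD, and 6 of the 8 passed the filter. The 3 shSORD libraries differed more among themselves than those of the other groups, with a chi-square per degree of freedom of 13.1 to 27.5 between shSORD pairs and 2.43 to 6.45 between the other pairs. The main fit shares 1 estimate of spread per gene over the 3 groups. Its p-values for shAKR1B1 against control thus also carry shSORD spread, and those for shSORD also draw on the smaller spread of the other groups. Values per gene below are CPM in replicates 1, 2 and 3, fold changes and adjusted p-values come from edgeR's quasi-likelihood test over all genes, and "rose" or "fell" marks an adjusted p under 0.05.

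The Hippo pathway is a kinase relay that restrains growth at high cell density and low mechanical tension. The kinases MST1 and MST2, encoded by STK4 and STK3, act with the scaffold SAV1 to activate LATS1 and LATS2, which with MOB1 phosphorylate the coactivators YAP (YAP1) and TAZ (WWTR1) and keep them out of the nucleus. In the nucleus YAP and TAZ bind TEAD factors, which recognise DNA themselves, and switch on targets such as CCN1, CCN2 and ANKRD1. Much of this control acts on the proteins, through phosphorylation and location, which RNA levels do not show. Several targets, among them LATS2, the angiomotins and PTPN14, are also inhibitors of YAP and close feedback loops.

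The module did not move as a block in either knockdown. With shAKR1B1 10 of the 32 genes rose and 15 fell (31.25% and 46.9%), beside 27.8% of all 16916 tested genes that rose and 29.6% that fell. With shSORD 10 rose and 13 fell (31.25% and 40.6%), beside 27.5% and 29% of all genes. The median log2 fold change of the 32 was -0.11 with shAKR1B1 and -0.07 with shSORD, and that of all tested genes was -0.0024 and -0.0021. Changes of at least 2-fold were seen in 6 of the 32 genes with shAKR1B1 and in 3 with shSORD. The share of all tested genes with changes of that size was not counted, so these numbers only describe the 32. The knockdowns share their control libraries, so their values are given side by side. When shAKR1B1 was compared with shSORD directly, 9 of the 32 genes were higher and 11 lower (28.1% and 34.4%), beside 15.5% and 15.1% of all genes. Of the 13 falls with shSORD several were small, and with the stricter filter on low counts the split was 12 higher and 8 lower.

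**Figure D1:**
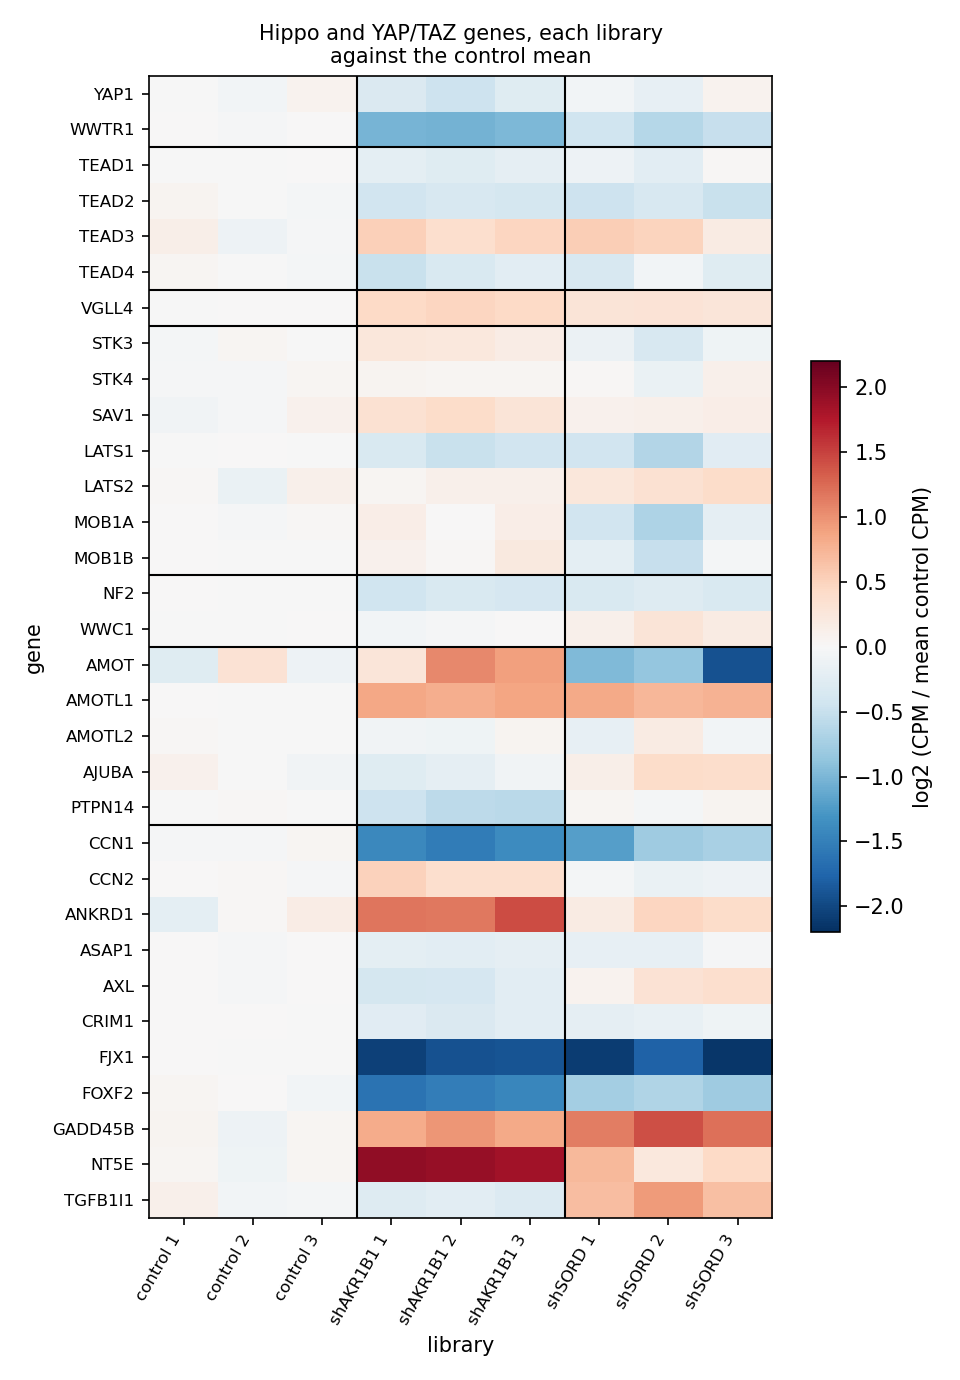
Heat map of the 32 genes (rows, separated by role) in the 9 libraries (columns), coloured by the log2 of the library's CPM over the mean control CPM. FJX1, FOXF2, CCN1 and WWTR1 are below control in every knockdown library and AMOTL1, GADD45B and NT5E above it, while AMOT, AXL and TGFB1I1 take opposite colours in the 2 knockdowns.

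The coactivator TAZ was the effector that changed most. WWTR1 (ENSG00000018408) was at 291, 285 and 289 CPM in control libraries, at 141, 139.9 and 144 with shAKR1B1 and at 212, 187 and 202 with shSORD. The 3 groups did not overlap, and shSORD lay between the others. In bulk RNA a lower level in each cell and fewer cells with the transcript cannot be told apart, here or for the other genes. WWTR1 fell 2.03-fold with shAKR1B1 (log2 fold change -1.02, SE 0.0533, adjusted p = 7.31e-10) and 1.44-fold with shSORD (-0.52, SE 0.0527, adjusted p = 1.01e-06). It was 1.41-fold lower with shAKR1B1 than with shSORD (adjusted p = 4.52e-06). Its antisense neighbour WWTR1-AS1, whose exons overlap it on the other strand, had at most 69 counts in a library, against at least 4608 for WWTR1.

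YAP1 (ENSG00000137693) moved less than its paralog. It was at 96.6, 92.5 and 102 CPM in control libraries, at 77.5, 70.8 and 80.7 with shAKR1B1 and at 93.4, 85.4 and 103 with shSORD. All shAKR1B1 libraries lay below all others, whereas the shSORD libraries spanned the control range. YAP1 fell 1.27-fold with shAKR1B1 (log2 fold change -0.35, SE 0.0724, adjusted p = 0.000847) and did not pass with shSORD (-0.05, 95% interval -0.20 to 0.11, adjusted p = 0.596). Per kilobase of exon sequence, WWTR1 was at 2.12 to 2.30 times the level of YAP1 in control libraries, at 1.34 to 1.48 times with shAKR1B1 and at 1.47 to 1.70 times with shSORD. TAZ transcripts thus outnumbered YAP transcripts on this scale in all 9 libraries, by a smaller factor in every knockdown library.

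Among the DNA-binding partners, 3 of 4 TEAD genes fell and 1 rose with shAKR1B1, and 2 fell and 1 rose with shSORD. Of all tested genes 29.6% fell and 27.8% rose with shAKR1B1, and 29% fell and 27.5% rose with shSORD. TEAD1, per kilobase the highest of the 4, was at 271, 272 and 275 CPM in control libraries, at 235, 228 and 238 with shAKR1B1 and at 251, 233 and 279 with shSORD. The shAKR1B1 libraries lay below control, and the shSORD libraries reached from below to above it. TEAD1 fell 1.17-fold with shAKR1B1 (adjusted p = 0.00523) and did not pass with shSORD (log2 fold change -0.10, 95% interval -0.23 to 0.03, adjusted p = 0.162), although it did without shSORD replicate 3 (adjusted p = 0.0113). TEAD2 fell in both, by 0.39 and 0.43 on the log2 scale (adjusted p = 9.1e-05 and 3.83e-05), from 35.8 to 38.4 CPM in control libraries to 27.5 to 28.9 and 26.4 to 28.96 CPM.

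TEAD4 and TEAD3 moved in opposite directions. TEAD4 fell from 28.9 to 30.5 CPM in control libraries to 21.0 to 25.1 with shAKR1B1 (log2 fold change -0.35, adjusted p = 0.00241). With shSORD it was at 23.2, 28.3 and 24.7 CPM, with replicate 2 close to control, and fell by 0.22 on the log2 scale (adjusted p = 0.0324). That call ended in 8 of 15 alternative analyses, among them leaving out any control library, shAKR1B1 replicate 2 or any shSORD replicate but the second (adjusted p up to 0.203). TEAD3, the scarcest of the 4, rose in both, from 8.73, 7.42 and 7.89 CPM to 11.6, 10.3 and 11.1 with shAKR1B1 and 11.7, 11.2 and 9.08 with shSORD (log2 fold change 0.46 and 0.41, adjusted p = 0.00159 and 0.00344). The ratio of TEAD1 to TEAD3 per kilobase was 9.203 to 10.9 in control libraries, 6.01 to 6.55 with shAKR1B1 and 6.16 to 9.09 with shSORD.

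VGLL4, which competes with YAP for TEAD and represses its targets, rose in both knockdowns. It was at 45.6, 46.1 and 46.2 CPM in control libraries, at 62.3, 63.7 and 62.5 with shAKR1B1 and at 56.3, 56.5 and 55.1 with shSORD. The 3 groups were separate, with replicates within 2 CPM of each other. The rise was 1.37-fold with shAKR1B1 (log2 fold change 0.45, SE 0.0523, adjusted p = 3.56e-06) and 1.22-fold with shSORD (0.28, adjusted p = 0.000314). VGLL4 shares exon sequence with ATG7 on the other strand, which had up to 1148 counts in a library. Without a stated strand setting, reads of these genes may be mixed.

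**Figure D2:**
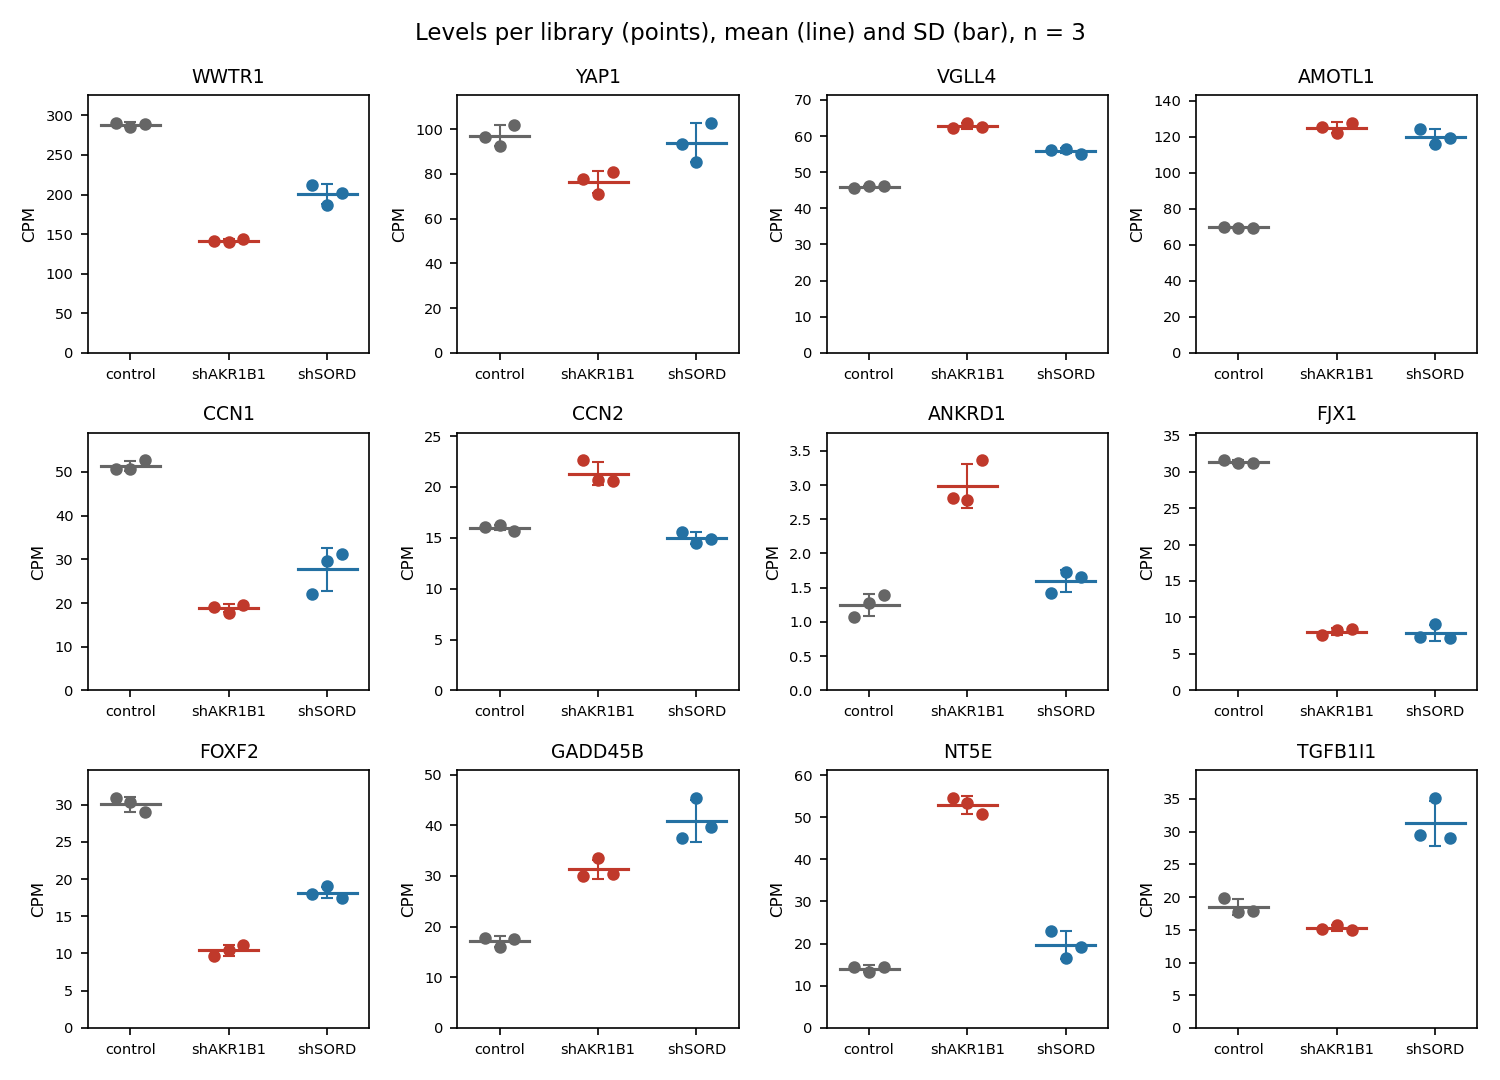
CPM of 12 of the 32 genes in each library (points), with the mean (line) and SD (bar) of 3 libraries per group; every vertical axis starts at 0. WWTR1, CCN1 and FOXF2 step down from control over shSORD to shAKR1B1, CCN2 and ANKRD1 stand highest with shAKR1B1, and TGFB1I1 stands highest with shSORD.

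The core kinases and their adaptors changed by small amounts and in both directions. With shAKR1B1 2 of 7 rose and 1 fell (28.6% and 14.3%), beside 27.8% and 29.6% of all tested genes. With shSORD 1 rose and 4 fell (14.3% and 57.1%), beside 27.5% and 29%. No change among the 7 reached 1.5-fold. LATS1, the kinase that phosphorylates YAP and TAZ, was at 32.9, 33.1 and 32.9 CPM in control libraries, at 26.1, 23.5 and 24.5 with shAKR1B1 and at 24.6, 21.1 and 27.9 with shSORD. No knockdown library reached the control level. LATS1 fell 1.34-fold with shAKR1B1 and 1.35-fold with shSORD (log2 fold change -0.42 and -0.43, adjusted p = 0.000733 and 0.000603). LATS2, its paralog and itself a YAP target, was at 21.9, 19.3 and 23.2 CPM in control libraries and at 25.5, 27.1 and 28.3 with shSORD, a 1.26-fold rise (adjusted p = 0.00166). With shAKR1B1 it stood at 22.1 to 23.1 CPM, inside the control range (log2 fold change 0.09, 95% interval -0.08 to 0.25, adjusted p = 0.349).

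Upstream of LATS, SAV1 rose with shAKR1B1, from 20.7 to 23.4 CPM to 26.7 to 28.9 (log2 fold change 0.34, adjusted p = 0.000477). It was at 23.4, 23.5 and 24.1 CPM with shSORD, where it did not pass (adjusted p = 0.16) except with the stricter filter (0.0442). Exons of ATL1 overlap SAV1 on the other strand, with up to 429 counts in a library. STK4 did not pass in either knockdown, at 69.2 to 72.6 CPM in control libraries, 72.3 to 73.7 with shAKR1B1 and 63.8 to 75.8 with shSORD (95% intervals of the log2 fold change -0.09 to 0.18 and -0.14 to 0.14).

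STK3 split between the knockdowns by small margins. It was at 28.9, 30.6 and 29.6 CPM in control libraries, at 35.4, 34.8 and 33.2 with shAKR1B1 and at 27.2, 23.4 and 28.0 with shSORD. The shAKR1B1 libraries lay above and the shSORD libraries below the controls, 1 of the latter by a wide margin. The rise with shAKR1B1 (log2 fold change 0.21, adjusted p = 0.0195) was lost when the first control library (adjusted p = 0.077) or the first shAKR1B1 library (0.0709) was left out. The fall with shSORD (-0.18, adjusted p = 0.0454) was lost in 13 of 15 alternatives, with adjusted p up to 0.157, and was kept with the replicate block and without shSORD replicate 3.

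The LATS activators MOB1A and MOB1B were lower with shSORD, unevenly among its libraries. MOB1A was at 199.7, 194 and 202 CPM in control libraries and at 148, 124 and 174 with shSORD, a 1.33-fold fall (adjusted p = 0.00107). MOB1B was at 18.3, 17.9 and 18.1 CPM in control libraries and at 15.6, 12.7 and 17.6 with shSORD (log2 fold change -0.24, adjusted p = 0.0444). In both genes shSORD replicate 2 was lowest and replicate 3 nearest to control. The MOB1B call ended in 10 of 15 alternatives, including without any control or shAKR1B1 library and without shSORD replicate 1 or 2 (adjusted p up to 0.17). With shAKR1B1 neither passed, at 201 to 221 and 18.5 to 20.9 CPM (adjusted p = 0.336 and 0.313), but both were called higher when only the 2 groups were fitted (0.0118 and 0.0457). Per kilobase MOB1A exceeded MOB1B 14.8 to 15.3 times in control libraries, 14.3 to 15.5 times with shAKR1B1 and 13.0 to 13.6 times with shSORD.

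Of the upstream regulators at the cell cortex, NF2 (merlin), which recruits LATS to the membrane, fell in both knockdowns. It was at 38.9 to 39.0 CPM in control libraries, at 28.6, 30.8 and 30.2 with shAKR1B1 and at 30.8, 32.1 and 30.7 with shSORD (log2 fold change -0.38 and -0.32, adjusted p = 5.81e-05 and 0.000295). Both knockdown groups lay clear of the narrow control range. WWC1 (KIBRA), a merlin partner, rose slightly with shSORD, from 175 CPM in each control library to 189, 213 and 199 (log2 fold change 0.20, adjusted p = 0.00509). With shAKR1B1 it was at 168, 171 and 176 CPM (-0.03, 95% interval -0.14 to 0.09, adjusted p = 0.689).

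The angiomotins, which tether YAP at junctions and the actin cytoskeleton, behaved differently from one another. AMOTL1 rose by nearly the same factor in both knockdowns, from 70.1, 69.5 and 69.5 CPM to 125, 122 and 128 with shAKR1B1 and 125, 116 and 119 with shSORD. Every knockdown library lay far above every control library. The rises were 1.80-fold and 1.72-fold (log2 fold change 0.84 and 0.78, SE 0.0511 in both, adjusted p = 3.9e-09 and 1.25e-08), and the direct difference was 0.06 (95% interval -0.05 to 0.17). AMOTL2, a widely used YAP target, did not pass in either, at 90.2 to 93.0 CPM in control libraries, 85.1 to 94.7 with shAKR1B1 and 80.8 to 103 with shSORD (95% intervals -0.20 to 0.13 and -0.17 to 0.15). AMOT itself was nearly silent, with 20 to 31 counts in the control libraries, 26 to 56 in those with shAKR1B1 and 7 to 15 in those with shSORD.

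AMOT was one of the genes called in opposite directions. It rose with shAKR1B1 (0.796, 1.38 and 1.23 CPM against 0.552, 0.822 and 0.611, log2 fold change 0.79, SE 0.264, adjusted p = 0.0184), with 1 library inside the control range. That call was lost without control replicate 1 or 3 or shAKR1B1 replicate 2 or 3 (adjusted p = 0.0724, 0.0566, 0.0838 and 0.0592). It fell with shSORD to 0.337, 0.366 and 0.176 CPM (-1.17, SE 0.336, adjusted p = 0.00815), with all libraries below control. PTPN14, a phosphatase that binds YAP and restrains it, fell with shAKR1B1 alone, from 48.4, 49.6 and 48.9 CPM to 35.9, 32.9 and 32.4 (log2 fold change -0.54, adjusted p = 2.91e-06). With shSORD it stayed at 50.2, 47.4 and 51.0 CPM (0.02, 95% interval -0.11 to 0.15, adjusted p = 0.822), and the difference between the knockdowns passed (-0.56, adjusted p = 6.29e-06). The LIM protein AJUBA, which inhibits LATS, rose with shSORD from 75.1, 70.1 and 66.6 CPM to 77.3, 93.8 and 92.1 (log2 fold change 0.31, adjusted p = 0.00297). With shAKR1B1 it was at 59.0, 61.2 and 66.9 CPM and missed the threshold (-0.18, adjusted p = 0.0638), which it passed in 6 of 15 alternatives (adjusted p from 0.0097), among them without shAKR1B1 replicate 3, shSORD replicate 1 or shSORD replicate 2.

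**Figure D3:**
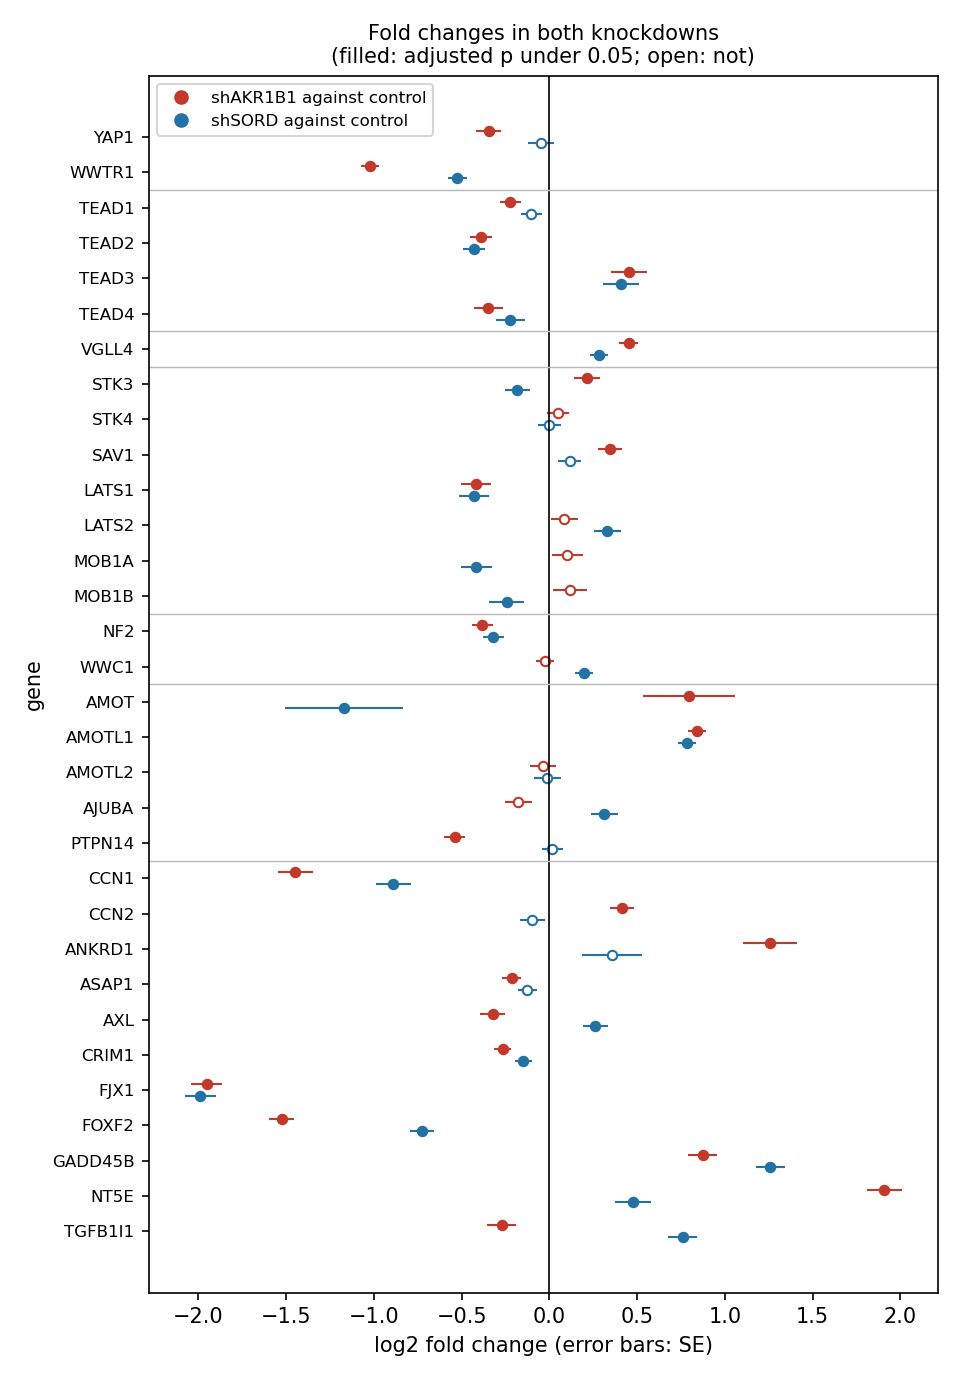
Log2 fold change of each of the 32 genes against control with its SE, red for shAKR1B1 and blue for shSORD; filled points passed an adjusted p of 0.05. FJX1 and AMOTL1 lie at nearly the same value in both knockdowns, CCN1, FOXF2 and WWTR1 lie further below 0 with shAKR1B1, and NT5E lies further above 0.

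The 3 genes most often read as YAP/TAZ output, CCN1, CCN2 and ANKRD1, did not move together. CCN1, a secreted matricellular protein that binds integrins, was at 50.6, 50.6 and 52.7 CPM in control libraries, at 19.1, 17.8 and 19.6 with shAKR1B1 and at 22.1, 29.7 and 31.3 with shSORD. All 6 knockdown libraries were far below control, and the shAKR1B1 libraries were lowest. CCN1 fell 2.73-fold with shAKR1B1 (log2 fold change -1.45, SE 0.102, adjusted p = 1.85e-08) and 1.85-fold with shSORD (-0.89, SE 0.099, adjusted p = 2.8e-06). CCN2, its close relative, went the other way with shAKR1B1, from 16.0, 16.3 and 15.7 CPM to 22.6, 20.7 and 20.6 (1.33-fold, log2 fold change 0.41, SE 0.0683, adjusted p = 0.000114). With shSORD it was at 15.6, 14.5 and 14.8 CPM and did not pass (-0.10, 95% interval -0.25 to 0.05, adjusted p = 0.252).

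ANKRD1, a nuclear ankyrin repeat protein induced by stretch and stress, also rose with shAKR1B1. It had 39 to 55 counts per control library and 92 to 145 with shAKR1B1, or 1.08, 1.27 and 1.40 against 2.82, 2.79 and 3.36 CPM. The rise was 2.39-fold (log2 fold change 1.26, SE 0.155, adjusted p = 6.79e-06). With shSORD it was at 1.42, 1.73 and 1.66 CPM, just above the controls, and missed the threshold (0.36, adjusted p = 0.084; 0.0492 with the stricter filter). Per kilobase, CCN1 was at 2.97 to 3.20 times the level of CCN2 in control libraries, at 1.35 to 2.01 times with shSORD and at 0.804 to 0.906 times with shAKR1B1, where CCN2 was the higher of the 2 in every library.

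The promoters of CCN2 and ANKRD1, which rose with shAKR1B1, and of FOXF2, which fell, are shown because all 3 hold the TEAD core motif while the transcripts moved in different directions. Promoter windows of 250 bases before to 50 after the start site came from RefSeq (GRCh38.p14) and were found for 26 of the 32 genes. CCN1, TEAD1, TEAD4, STK3, ASAP1 and CRIM1 had no window, so their promoters were not searched. The motif GGAATG was searched on both strands, with no allowance for mismatches. A copy on the opposite strand appears as its reverse complement, CATTCC. The motif was in at least 1 window of 9 of the 26 genes (34.6%), against 16.7% of all 27305 genes with such windows. A gene with several windows, such as VGLL4 with 5, has more chances to hold it, and these shares were not adjusted for that. Counted per window, which is another measure, the share over all genes was 14.0%. Each stretch runs from base -250 to base -1 before the start site, 5′ to 3′ on the gene's strand, with the motif in capitals. CCN2 lies on the minus strand (chr6:131951373-131951622), ANKRD1 on the minus strand (chr10:90921088-90921337) and FOXF2 on the plus strand (chr6:1389326-1389575).
CCN2: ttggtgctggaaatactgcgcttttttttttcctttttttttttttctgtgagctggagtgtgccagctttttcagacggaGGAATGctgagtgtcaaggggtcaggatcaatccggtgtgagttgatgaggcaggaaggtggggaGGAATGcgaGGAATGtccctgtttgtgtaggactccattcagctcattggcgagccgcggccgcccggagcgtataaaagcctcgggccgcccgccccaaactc
ANKRD1: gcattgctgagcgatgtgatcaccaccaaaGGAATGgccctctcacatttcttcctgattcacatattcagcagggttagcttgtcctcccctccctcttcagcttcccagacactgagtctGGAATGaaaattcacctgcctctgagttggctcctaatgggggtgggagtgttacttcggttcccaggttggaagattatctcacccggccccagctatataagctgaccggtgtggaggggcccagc
FOXF2: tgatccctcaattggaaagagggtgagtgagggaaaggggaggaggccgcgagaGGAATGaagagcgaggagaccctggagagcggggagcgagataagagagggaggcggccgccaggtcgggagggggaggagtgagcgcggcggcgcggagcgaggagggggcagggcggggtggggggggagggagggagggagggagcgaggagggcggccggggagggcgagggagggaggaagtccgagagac

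CCN2 holds 3 copies, at -169, -104 and -95 (first base of the motif), the last 2 lying 3 bases apart, and ANKRD1 holds 2, at -220 and -128, all on the gene's strand. FOXF2 holds 1, at -196. A single copy was also found upstream of 1 annotated start each of AMOTL2 (at -69), AJUBA (-59), PTPN14 (-200) and AXL (-212), shown with 10 bases on each side, the copies of AMOTL2, PTPN14 and AXL being on the opposite strand.
AMOTL2 (chr3:134374501-134374526, minus strand): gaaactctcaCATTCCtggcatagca
AJUBA (chr14:22976886-22976911, minus strand): gaagttggctGGAATGaagccaaagc
PTPN14 (chr1:214551787-214551812, minus strand): tcccgggccgCATTCCtccccgcccc
AXL (chr19:41226533-41226558, plus strand): gactttgcacCATTCCactccctccg

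YAP1 and LATS2 were the other genes with a copy, at -162 and at 10 after the start. No copy was in the windows of FJX1, NT5E, GADD45B and AMOTL1, which had some of the largest changes. That says only that these letters are not in these windows, and TEAD factors often act at distant enhancers.

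FJX1 and FOXF2 had the deepest falls of the 32 genes with shAKR1B1. FJX1, the human relative of the Drosophila Golgi kinase four-jointed, was at 31.6, 31.2 and 31.1 CPM in control libraries, at 7.57, 8.29 and 8.35 with shAKR1B1 and at 7.38, 9.12 and 7.12 with shSORD. The 2 knockdowns overlapped each other and lay far below control. The falls were 3.87-fold and 3.97-fold (log2 fold change -1.95 and -1.99, SE 0.088 in both, adjusted p = 1.55e-10 and 2.12e-10), and the direct difference was 0.04 (95% interval -0.17 to 0.24). FOXF2, a forkhead factor of mesenchymal tissue, was at 30.9, 30.3 and 28.9 CPM in control libraries, at 9.71, 10.4 and 11.1 with shAKR1B1 and at 18.0, 19.0 and 17.5 with shSORD. Its 3 groups were separate. It fell 2.88-fold with shAKR1B1 (-1.53, SE 0.0725, adjusted p = 2.7e-10) and 1.65-fold with shSORD (-0.72, SE 0.0691, adjusted p = 5.86e-07).

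NT5E and GADD45B rose in both knockdowns. NT5E, the ectonucleotidase CD73 that makes adenosine from AMP outside the cell, was at 14.5, 13.2 and 14.6 CPM in control libraries, at 54.6, 53.4 and 50.6 with shAKR1B1 and at 23.1, 16.5 and 19.2 with shSORD. The shAKR1B1 libraries stood far above both other groups. NT5E rose 3.76-fold with shAKR1B1 (log2 fold change 1.91, SE 0.0987, adjusted p = 6.65e-10) and 1.39-fold with shSORD (0.48, adjusted p = 0.000971). GADD45B, a stress-inducible regulator of growth arrest, had the reverse order. It was at 17.8, 15.9 and 17.6 CPM in control libraries, reached 30.0, 33.5 and 30.5 with shAKR1B1 and was highest, at 37.4, 45.5 and 39.7, with shSORD. It rose 1.83-fold and 2.39-fold (log2 fold change 0.87 and 1.26, adjusted p = 4.69e-07 and 1.37e-08).

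AXL and TGFB1I1 were called lower with shAKR1B1 and higher with shSORD. AXL, the receptor tyrosine kinase for GAS6, was at 141, 137 and 141 CPM in control libraries, at 107, 109 and 119 with shAKR1B1 and at 148, 175 and 180.1 with shSORD (log2 fold change -0.32 and 0.26, adjusted p = 0.00115 and 0.00504). TGFB1I1 (Hic-5), a focal adhesion adaptor induced by TGF-beta, was at 19.8, 17.7 and 17.9 CPM in control libraries, at 15.1, 15.8 and 14.9 with shAKR1B1 and at 29.5, 35.2 and 29.1 with shSORD. In both genes the 3 groups were separate and control lay in the middle. TGFB1I1 fell by 0.27 with shAKR1B1 (SE 0.0849, adjusted p = 0.013, but 0.0668 without control replicate 1) and rose 1.69-fold with shSORD (log2 fold change 0.76, SE 0.0819, adjusted p = 1.98e-06). The summed fibroblast markers given above, most of which is COL1A1, were likewise lowest with shAKR1B1 and highest with shSORD. Of the 6 tested, 1 rose, 2 fell and 3 did not pass with shAKR1B1, and 5 rose and 1 did not pass with shSORD. The library shSORD replicate 2 was highest in TGFB1I1 and also in COL1A1 (31.7, 46.0 and 31.4 CPM in the shSORD libraries, 14.1 to 15.9 in control libraries). Their part in these results was not tested.

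The remaining targets, CRIM1 and ASAP1, changed little. CRIM1, a transmembrane protein that binds BMPs and per kilobase the highest of the 32, was at 467 to 472 CPM in control libraries, 375 to 402 with shAKR1B1 and 411 to 442 with shSORD. Both groups lay below control. It fell by 0.27 and 0.15 on the log2 scale (adjusted p = 0.00027 and 0.0169), and the shSORD call was lost with the stricter filter, with only the 2 groups in the fit and without control replicate 3 or shSORD replicate 1 (adjusted p = 0.0932, 0.0662, 0.0701 and 0.0904). ASAP1, an Arf GTPase-activating protein at focal adhesions, fell with shAKR1B1 from 156 to 160.3 CPM to 135 to 138 (-0.21, adjusted p = 0.00353). With shSORD it was at 139, 140.2 and 156 CPM and missed the threshold (-0.13, adjusted p = 0.0569), passing without shSORD replicate 3 (0.00674).

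**Figure D4:**
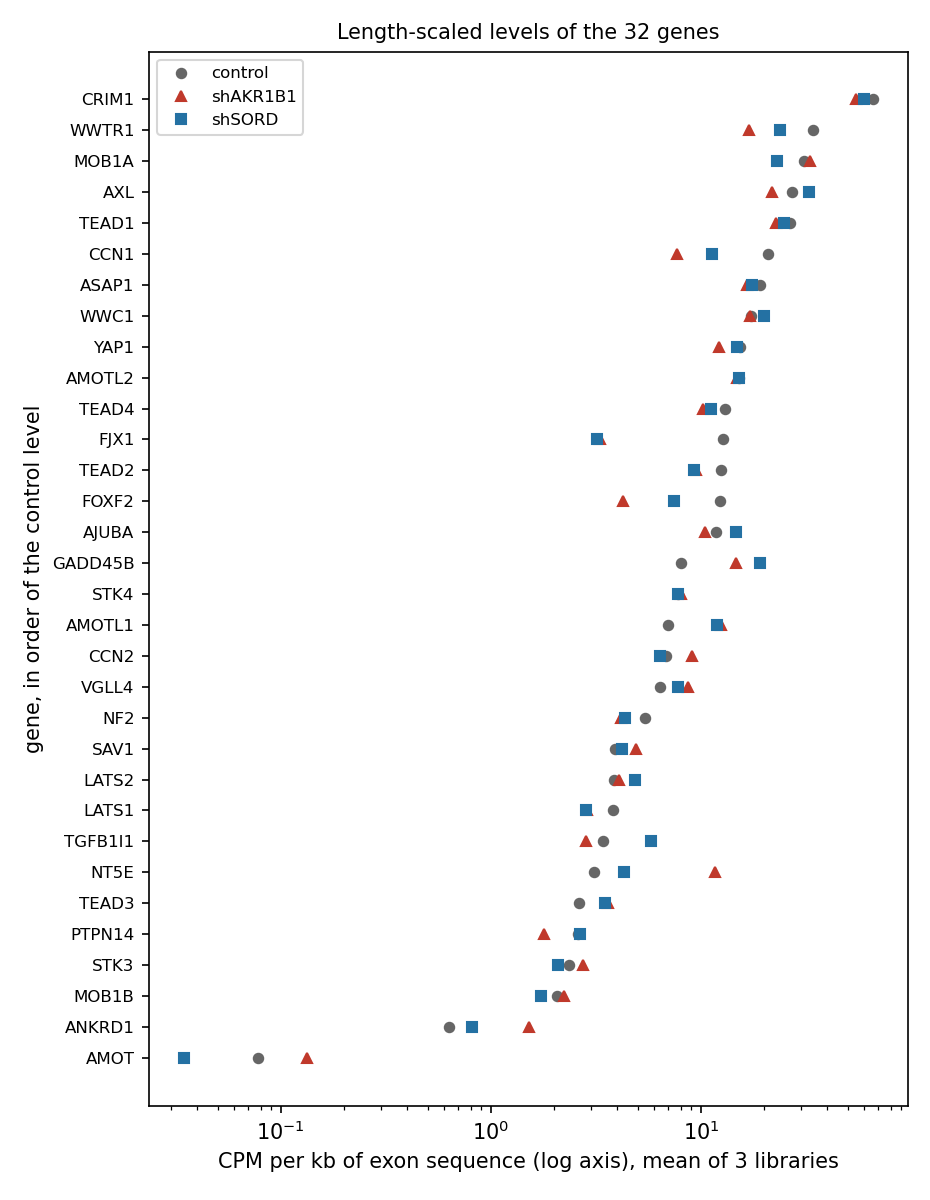
Mean CPM per kilobase of exon sequence (log axis) of the 32 genes in order of the control level, for the 3 groups. The control means run from 0.0778 for AMOT to 65.9 for CRIM1, and the knockdown means of FJX1, FOXF2 and CCN1 lie left of their control means while those of NT5E lie right.

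On the per-kilobase scale the control levels spanned 0.0778 for AMOT to 65.9 for CRIM1. CRIM1 was followed by WWTR1 (34.3), MOB1A (30.9), AXL (27.1) and TEAD1 (26.5), whose control libraries did not overlap except between AXL (26.7 to 27.4) and TEAD1 (26.4 to 26.7). YAP1 (14.7 to 16.2) and AMOTL2 (15.1 to 15.5) could not be ordered. The means of TEAD4, FJX1, TEAD2, FOXF2 and AJUBA lay between 11.8 and 13.0, with overlapping neighbours. Among them, TEAD4 and FJX1 (lowest 12.71 and 12.70) lay above FOXF2 and AJUBA (highest 12.62 and 12.55). TEAD2 (12.0 to 12.9) overlapped each of the others. Of the targets used as reporters, CCN1 was at 20.9, CCN2 at 6.84 and ANKRD1 at 0.632. The kinases LATS1 and LATS2 stood at 3.82 and 3.85, well below the level of WWTR1.

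In the direct comparison of the knockdowns, the differences at or above 2-fold within the module were those of AMOT (log2 fold change 1.96, SE 0.304, adjusted p = 0.000169), NT5E (1.43, SE 0.0957, adjusted p = 3.72e-08) and TGFB1I1 (-1.03, SE 0.0829, adjusted p = 2.66e-07). ANKRD1 was 1.87-fold, MOB1A 1.43-fold and CCN2 1.42-fold higher with shAKR1B1 than with shSORD (adjusted p = 0.000279, 0.000405 and 4.46e-05). FOXF2 was 1.74-fold, CCN1 1.47-fold and AJUBA 1.41-fold lower (adjusted p = 1.01e-06, 0.00073 and 0.000197), and AXL differed by -0.58 on the log2 scale (adjusted p = 1.46e-05). The 4 TEAD genes did not pass, with 95% intervals within -0.30 to 0.26. Small calls were less stable: VGLL4 (0.17, adjusted p = 0.0233) was lost with no filter, with only the 2 groups in the fit and without any shAKR1B1 replicate or shSORD replicate 1 (0.0544 to 0.101). SAV1 (0.23) was lost without shAKR1B1 replicate 1 or 2 (0.0511 and 0.0765), LATS2 (-0.24) without any shAKR1B1 replicate (0.054 to 0.0859) and MOB1B (0.36) without shAKR1B1 replicate 3 (0.0569). TEAD1 passed without shSORD replicate 2 (-0.18, adjusted p = 0.0129).

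The other genes of the pathway were taken from 6 lists that hold none of the 32. Of 88 listed genes 84 were tested. With shAKR1B1 28 rose and 39 fell (33.3% and 46.4%), beside 27.8% and 29.6% of all tested genes. With shSORD 27 rose and 31 fell (32.1% and 36.9%), beside 27.5% and 29%. These shares of all genes also stand beside the counts of each list below. Without shAKR1B1 replicate 2 the falls with shAKR1B1 numbered 25. Polarity and junction proteins, which hold YAP and its regulators at cell contacts, had the highest share of rises: with shAKR1B1 10 of 16 rose and 5 fell, and with shSORD 9 rose and 4 fell, at list medians of 0.37 and 0.25 on the log2 scale. In this list PARD6B (log2 fold change 1.18 and 0.84) and the Crumbs protein CRB3 (1.08 and 1.33) rose with shAKR1B1 and shSORD, as did the basolateral polarity protein LLGL2 (0.66 and 0.90). Other genes of the list, SCRIB (-0.40 and -0.20), PARD3 (-0.18 and -0.26) and ARHGEF7 (-0.18 and -0.20), fell in both. Of the 8 epithelial and A549 markers, 8 rose with shAKR1B1, and 6 rose and 1 fell with shSORD. Among the risers, EPCAM rose 3.43-fold and 5.11-fold and the adherens junction cadherin CDH1 2.13-fold and 2.21-fold. The part of these markers in the list's counts was not tested.

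Among other upstream kinases and scaffolds, 9 of 23 rose and 7 fell with shAKR1B1 (39.1% and 30.4%), beside 27.8% and 29.6% of all tested genes. With shSORD 8 rose and 7 fell (34.8% and 30.4%), beside 27.5% and 29%. RASSF6, a scaffold that binds MST kinases, had the largest rise of the list in both, from 4.25, 4.88 and 3.56 CPM to 14.6, 13.3 and 14.3 with shAKR1B1 and 13.1, 13.0 and 16.0 with shSORD (3.33-fold and 3.32-fold, adjusted p = 1.1e-08 and 1.6e-08). All knockdown libraries were well above control. The giant cadherin FAT3 rose in both, by 1.10 and 0.51. FAT4 rose by 0.99 with shAKR1B1 and was 1.85-fold higher there than with shSORD (adjusted p = 3.52e-07), where it did not pass (adjusted p = 0.276). FRMD6, a merlin relative, fell with shAKR1B1 (-0.65, adjusted p = 9.88e-06) and did not pass with shSORD (0.17, adjusted p = 0.0858), and the kinase TNIK fell in both, by 0.30 and 0.64. RASSF2, another MST-binding scaffold, fell by 0.23 with shAKR1B1 and rose by 0.55 with shSORD (adjusted p = 0.0012 and 3.02e-07).

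STRIPAK and phosphatase genes, which oppose MST activity, stood at 2 higher and 8 lower of 12 with shAKR1B1 and at 3 and 5 with shSORD. The striatin STRN4 fell in both, by 0.30 with shAKR1B1 and 0.83 with shSORD, and the direct difference was 0.52 (adjusted p = 2.08e-05). STRIP2 fell by 0.22 with shAKR1B1 and rose by 0.43 with shSORD (adjusted p = 0.0304 and 0.00025). Genes of YAP/TAZ turnover and cytoplasmic retention stood at 2 higher and 8 lower of 14 with shAKR1B1 (14.3% and 57.1%). With shSORD they stood at 1 and 5 (7.14% and 35.7%). Of 6 tested nuclear cofactors 1 rose and 4 fell with shAKR1B1 (16.7% and 66.7%), and 0 rose and 4 fell with shSORD (0% and 66.7%). VGLL3, another TEAD cofactor, rose 1.99-fold with shAKR1B1 (14.6, 14.9 and 16.0 to 29.7, 26.7 and 34.0 CPM, adjusted p = 4.07e-07) and was at 14.6, 13.9 and 16.6 CPM with shSORD (adjusted p = 0.909). RUNX1, a DNA-binding partner of YAP, fell by 0.87 and 0.70.

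Of the 13 further YAP/TAZ targets, 4 rose and 7 fell with shAKR1B1 (30.8% and 53.8%), beside 27.8% and 29.6% of all tested genes. The shSORD libraries gave 6 rises and 6 falls (46.2% each), beside 27.5% and 29%. The matrix protein CCDC80 was at 96.0, 100.2 and 96.6 CPM in control libraries, lower at 74.7, 71.5 and 71.0 with shAKR1B1 and higher at 152.9, 171 and 161 with shSORD. Its 3 groups were separate, and it fell by 0.43 with shAKR1B1 and rose by 0.73 with shSORD on the log2 scale (adjusted p = 1.02e-05 and 5.6e-08). The TWEAK receptor TNFRSF12A fell in both (-1.11 and -0.94), as did the kinase NUAK2 (-0.74 and -0.42) and the mitotic survivin gene BIRC5 (-0.62 and -0.67), and tissue factor F3 rose by 0.57 and 1.10.

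**Figure D5:**
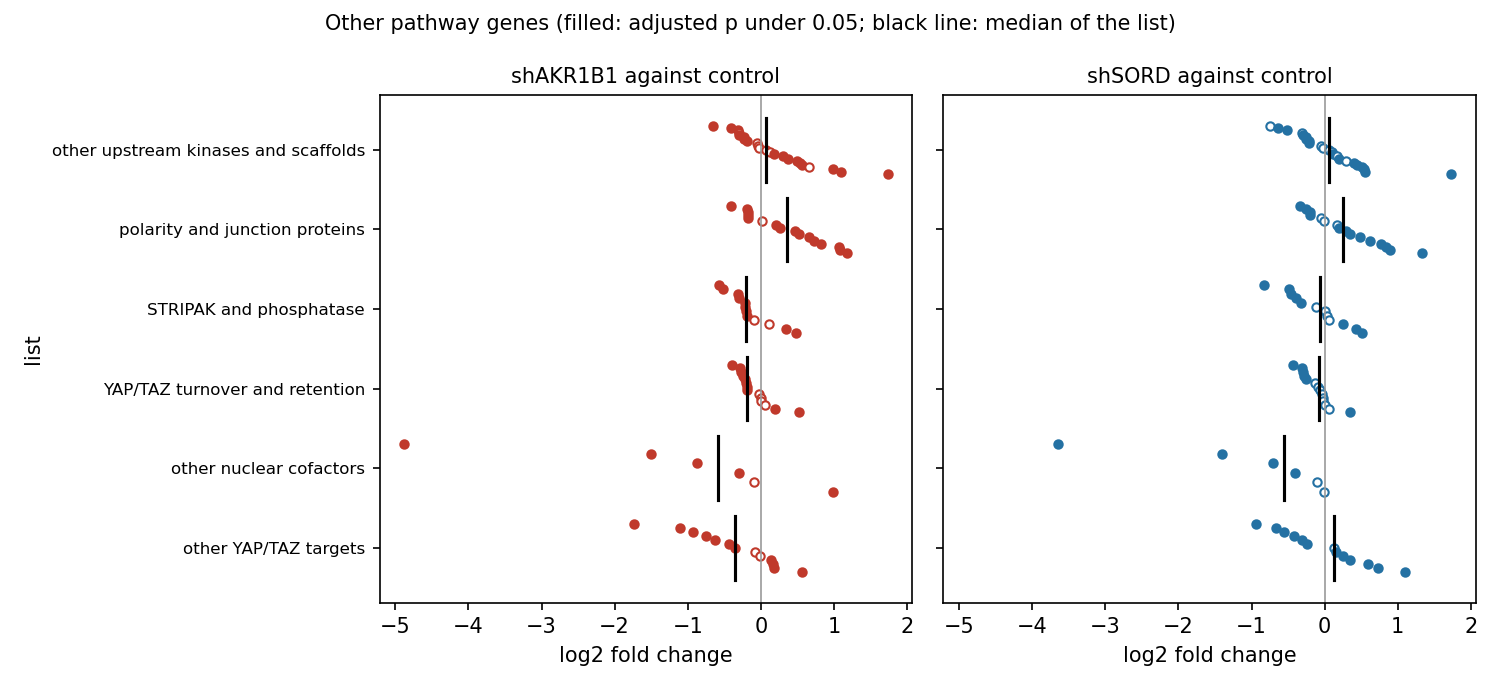
Log2 fold changes of the 84 tested pathway genes outside the 32, by list, for shAKR1B1 (left) and shSORD (right) against control; each point is a gene, filled where the adjusted p was under 0.05, and the black line is the list's median. Medians run from -0.58 (nuclear cofactors) to 0.37 (polarity and junction proteins) with shAKR1B1 and from -0.55 to 0.25 for the same lists with shSORD.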

How the data were processed

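The deposited table holds the authors' whole-number counts of reads per Ensembl gene, without normalization. Per the submitters' processing notes, cutadapt 1.9.1, STAR 2.5.2b, featureCounts 1.5.1 and DESeq2 1.12.3 were used with build GRCh37. The library kit was a stranded one, per the labels' protocols. How counting used strand, its annotation release and its handling of multiply mapping reads: not given in the sources used here. Counts were fitted in edgeR 4.0.16 (R 4.3.3): TMM scaling, the default filter by group (16916 genes kept), a quasi-likelihood model of the 3 group means fitted to the 9 libraries together, and Benjamini-Hochberg adjustment over all tested genes in each of 3 comparisons. The fit was also run on counts simulated from its own estimates of spread, with far fewer changed genes than were called here. That run therefore cannot measure the error rate at the share of genes called in these data. SE is the absolute log2 fold change over the square root of F, and fitted values used a prior count of 0.125. CPM uses TMM-scaled library sizes. Lengths for CPM per kilobase are exon unions of GENCODE 29, which is on another build than the counts. Gene names matched 51996 of 57905 IDs. RASSF5 in the pathway lists matched none.

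The 32 genes and the pathway lists were chosen with earlier results of these data known. Named pathway genes were, per comparison, the 5 largest rises and falls among called genes with a mean of at least 50 counts and no overlap between groups. Some genes that this rule selects are not reported here.

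Alternatives were RLE scaling, DESeq2 1.42.0, no filter, a filter of 50 counts in 3 libraries, fits of 2 groups only, the replicate number as a block and leaving out each library. Same-numbered libraries of shAKR1B1 and shSORD deviated together weakly across genes (Pearson r 0.10, 0.19 and 0.14 for numbers 1, 2 and 3). The labels state no pairing, so the numbers may or may not pair these groups. The main fit used no pairing, and the replicate block was applied to all 3 groups. Between control and either knockdown the 6 same-number correlations were -0.03 to 0.03.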

Additional observations from a re-analysis of the deposited data

Results flagged for a closer look

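Genes were flagged by a rule: calls against control in opposite directions in the 2 knockdowns, and a direct test between them that passed. The rule picked 4 of the 32 genes, so the direct test is part of the choice and adds no support. The share of all tested genes that meet the rule was not counted. The log2 fold change of shAKR1B1 against shSORD was 0.40 for STK3, 1.96 for AMOT, -0.58 for AXL and -1.03 for TGFB1I1 (edgeR adjusted p = 0.00069, 0.000169, 1.46e-05 and 2.66e-07, all 3 libraries of one knockdown beyond all 3 of the other). AMOT rests on 7 to 56 counts per knockdown library, and its rise with shAKR1B1 was lost in 4 of 14 alternatives. The STK3 fall with shSORD was lost in 13 of 15 alternatives and its rise with shAKR1B1 in 2. The TGFB1I1 fall with shAKR1B1 was lost in 1, and both AXL calls against control were kept in all 15.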

How the results depend on the processing

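Of the calls among the 32 genes, 22 of 25 with shAKR1B1, 19 of 23 with shSORD and 16 of 20 between the knockdowns were kept under every alternative that could be run (the stricter filter removed AMOT). Depth limits mainly AMOT and ANKRD1. With the stricter filter the falls with shSORD numbered 8 in place of 13. AMOT was no longer tested, and TEAD4, STK3, MOB1B and CRIM1 no longer passed. Their log2 fold changes went from -0.22, -0.18, -0.24 and -0.15 to -0.17, -0.13, -0.19 and -0.099. SAV1 and YAP1 also moved upward, from 0.12 and -0.05 to 0.17 and 0.0026. All of these genes still tested moved up by a similar amount, including CRIM1, per kilobase the highest of the 32. TMM scaling was recomputed on the genes that each filter kept, and its part in this shift was not tested. No other count of changed genes moved by over 1.5 times under an alternative that kept all libraries. Leaving out 1 library at a time gave 8 to 10 rises and 14 to 16 falls among the 32 with shAKR1B1, 10 rises and 9 to 14 falls with shSORD, and 7 to 9 higher and 10 to 12 lower between the knockdowns. For the other pathway genes it gave 24 to 29 and 25 to 39, 23 to 31 and 26 to 32, and 14 to 25 and 11 to 21 in the same order. The replicate block gave 10 rises and 16 falls with shAKR1B1, AJUBA being added (log2 fold change -0.18, adjusted p = 0.0487). It changed no other call among the 32 and left 9 higher and 11 lower between the knockdowns.

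Direction changed only in genes that did not pass the test in that comparison, all with log2 fold changes near 0. With the stricter filter these were WWC1 and AMOTL2 with shAKR1B1 (0.014 and 0.0040) and YAP1 and AMOTL2 with shSORD (0.0026 and 0.039). With shSORD, AMOTL2 was at 0.0087 with only the 2 groups in the fit, and STK4 was at -0.010 with no filter and -0.0016 with the replicate block. Without 1 library, AMOTL2 ranged from -0.085 to 0.011 with shAKR1B1, from -0.11 to 0.080 with shSORD and from -0.10 to 0.076 between the knockdowns. YAP1 and STK4 with shSORD ranged from -0.100 to 0.017 and from -0.038 to 0.067. Between the knockdowns TEAD3 ranged from -0.061 to 0.11, STK4 from -0.019 to 0.10, LATS1 from -0.088 to 0.11 and FJX1 from -0.035 to 0.16.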

Other observations

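RUNX2, a Runt factor that can bind YAP and TAZ and drives bone development, was outside the rule for named genes because its mean count was too low, and was chosen after its values were seen. It was at 1.91, 2.201 and 2.26 CPM in control libraries, at 0.0613, 0.0987 and 0.0464 with shAKR1B1 and at 0.0259, 0.146 and 0.326 with shSORD. The fitted log2 fold changes were -4.89 and -3.64 (edgeR adjusted p = 1.41e-07 and 5.91e-07), with all 6 knockdown libraries below all control libraries. The sizes rest on 1 to 13 counts per knockdown library, against 69 to 89 per control library.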
